A study of Mus musculus with 16 samples.

Results

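The 37 genes described here are immediate early genes and their close companions, the transcripts that a cell makes within minutes of a stimulus and that are also known to appear while tissue is taken apart into single cells. They were given by name, and all 37 were found among the 36950 genes of the table. The study profiled single left ventricular cells, from male mice of a TAC model, in which the aorta is narrowed to load the heart. Of the 16 mice, the stage 0w has 2, the stage 2w has 2, the stage 5w has 7, the stage 8w has 3 and the stage 11w has 2, with stages counted in weeks. The labels give neither the strain nor the age of the mice, and do not say whether those at 0w had surgery. The question put to the 37 genes was whether their levels followed the cell type, the disease stage or the handling of the tissue.

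Per the labels' protocols, sliced tissue was digested with protease XXIV and collagenase II to obtain myocytes, or with a papain enzyme to obtain the other cells. The labels tie no plate of cells to an enzyme. The 12 plates are therefore called myocyte-rich where over 50% of their annotated cells were cardiomyocytes (5 plates, lettered A, C, G, H and J) and myocyte-poor otherwise (7 plates, lettered B, D, E, F, I, K and L). Plate K, at 43.1%, lay closest to that line. Each plate held 2 mice, and each plate held 1 stage except plate E, which held 5w replicate 1 and 8w replicate 1. Stage and plate can thus not be told apart in most comparisons, and a mouse whose cells were on both kinds of plate gives the comparison closest to handling alone.

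Immediate early genes are switched on without new protein synthesis, when kinases such as ERK, JNK and p38 act on factors already bound at their promoters, chiefly SRF with its ternary complex factors, and CREB. Many of their products are transcription factors, among them the AP-1 subunits of the Fos and Jun families, the EGR zinc finger factors and the NR4A nuclear receptors. Others end the response: DUSP phosphatases inactivate MAP kinases, ZFP36 promotes the decay of unstable mRNAs and NFKBIA holds NF-kB in the cytoplasm. In the heart the same genes are known to answer stretch and pressure load, and in most tissues they also answer warm enzymatic digestion.

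Some of the 37 genes had promoters with a cyclic AMP response element (CRE), the binding sequence of CREB and of the ATF family to which ATF3 belongs. Promoter windows from 250 bases before to 50 bases after the gene's start were read from RefSeq on GRCm38.p6 and were found for 30 of the 37 genes. Egr1, Egr3, Ier2, Klf10, Cyr61, Myc and Nfkbiz had no window. Motifs were searched on both strands. The core of the CRE, TGACGT, was in 8 of the 30 windows (26.7%), against 7.51% of all 32851 windows: those of Atf3, Btg1, Btg2, Dusp1, Dusp5, Fos, Nr4a3 and Ppp1r15a. The full CRE, TGACGTCA, which holds that core on each strand, was in 3 (Btg2, Dusp1 and Ppp1r15a), against 1.79% of all windows. The CArG box, the sequence bound by SRF, was in 2 (Dusp5 and Zfp36), against 1.63%. The AP-1 sequence TGANTCA was in 0 of the 30, against 7.81%. For each motif, its absence says only that the letters are not in these windows, and sites outside them were not searched. The 5 windows printed here belong to genes that the results below turn on and that hold a motif. All are written 5′ to 3′ on the gene's strand, with the motif in capitals. Fos (chr12:85473640-85473939, plus strand), Atf3 (chr1:191183284-191183583, minus strand), Dusp1 (chr17:26508423-26508722, minus strand) and Ppp1r15a (chr7:45526219-45526518, minus strand) show the CRE or its core, which reads ACGTCA where it lies on the other strand. Zfp36 (chr7:28379179-28379478, minus strand) shows the CArG box.
Fos: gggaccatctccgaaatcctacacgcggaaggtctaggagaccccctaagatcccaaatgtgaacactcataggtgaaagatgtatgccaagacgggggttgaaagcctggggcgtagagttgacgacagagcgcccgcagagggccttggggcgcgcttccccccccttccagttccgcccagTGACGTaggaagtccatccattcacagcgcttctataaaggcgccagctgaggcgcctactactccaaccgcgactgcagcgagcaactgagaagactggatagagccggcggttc
Atf3: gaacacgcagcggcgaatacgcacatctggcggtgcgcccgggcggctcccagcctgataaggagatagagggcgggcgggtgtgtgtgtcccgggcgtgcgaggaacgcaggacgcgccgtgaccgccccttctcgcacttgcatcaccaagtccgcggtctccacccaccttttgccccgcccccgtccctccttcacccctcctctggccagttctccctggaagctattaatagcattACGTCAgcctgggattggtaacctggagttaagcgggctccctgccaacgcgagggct
Dusp1: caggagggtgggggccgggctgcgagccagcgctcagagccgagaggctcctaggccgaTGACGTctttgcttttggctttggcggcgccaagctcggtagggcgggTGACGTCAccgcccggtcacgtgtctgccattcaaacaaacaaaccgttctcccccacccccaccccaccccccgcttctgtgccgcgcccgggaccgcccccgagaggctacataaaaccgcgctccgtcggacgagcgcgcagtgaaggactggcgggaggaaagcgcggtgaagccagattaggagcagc
Ppp1r15a: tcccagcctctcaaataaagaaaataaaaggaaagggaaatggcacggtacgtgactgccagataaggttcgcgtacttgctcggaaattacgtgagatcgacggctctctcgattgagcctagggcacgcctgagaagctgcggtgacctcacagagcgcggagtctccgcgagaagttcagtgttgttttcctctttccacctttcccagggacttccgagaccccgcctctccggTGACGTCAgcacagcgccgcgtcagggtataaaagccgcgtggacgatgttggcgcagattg
Zfp36: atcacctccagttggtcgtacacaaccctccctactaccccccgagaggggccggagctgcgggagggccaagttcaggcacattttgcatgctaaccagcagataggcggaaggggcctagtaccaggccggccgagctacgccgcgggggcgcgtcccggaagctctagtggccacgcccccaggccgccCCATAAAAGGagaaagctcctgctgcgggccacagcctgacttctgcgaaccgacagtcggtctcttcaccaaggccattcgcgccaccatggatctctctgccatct

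The table held 11492 cells, with between 113 and 1269 cells and between 3441317 and 121599183 unique molecular identifiers (UMIs, one for each captured mRNA molecule) per mouse. No cell name occurred more than once. The names carry the plate and well, so they do not show whether a barcode recurred between libraries. Mitochondrially encoded genes took 56.0% of all UMIs, so levels are given as CPM, the counts per 1000000 of the other UMIs. The authors annotated 5656 cells as CM (cardiomyocytes), 1775 as FB (fibroblasts), 1858 as EC (endothelial cells), 1413 as MP (macrophages), 606 as T (T cells) and 181 as GN, which the labels do not explain. Each type had the highest summed level of its own defining markers. The 7 cardiomyocyte markers summed to 47106 CPM in CM, and also to 3171 CPM in FB and to 15018 CPM in GN, the lowest and highest of the other types. In 8w replicate 3, the 13 cells annotated as T had 4 of the 7 T cell markers at 0 (Cd3e, Cd3d, Il7r and Cd2). Of 7 markers of vessel wall (mural) cells 7, and of 7 endothelial markers 5, were higher in CM than in the mean of FB, EC, MP and T. The CM of 5w replicate 1 stood apart, with 10479 CPM of cardiomyocyte markers, the lowest of 14 mice, and the highest sums of 6 macrophage markers (1448 CPM) and 7 fibroblast markers (8622 CPM). Mice are the replicates throughout, and the labels do not name litters or surgery days.

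The 37 genes were found in every annotated type. Together they took 2413891 UMIs, which is 0.731% of the UMIs outside mitochondrially encoded genes. Their share was lowest in CM, with a median of 0.360% over 14 mice (lowest 0.217%, highest 0.956%), and next lowest in T, with a median of 0.481% over 11 mice (0.209% to 0.956%). The medians of the other types lay close together. FB had 0.964% (0.719% to 1.70%, 12 mice), EC had 0.927% (0.451% to 1.37%, 13 mice), MP had 0.983% (0.584% to 1.53%, 16 mice) and GN had 0.962% (0.635% to 1.14%, 6 mice). The ranges of these 4 types overlapped almost entirely, and those of CM and T overlapped with the lower end of them. Of the 36 genes with a median above 0 in some type, the highest median was in FB for 14, in EC for 8, in MP for 8, in GN for 4, in T for 2 and in CM for 0. Egr3, an EGR family factor, had a median of 0 CPM in every type.

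**Figure D1:**
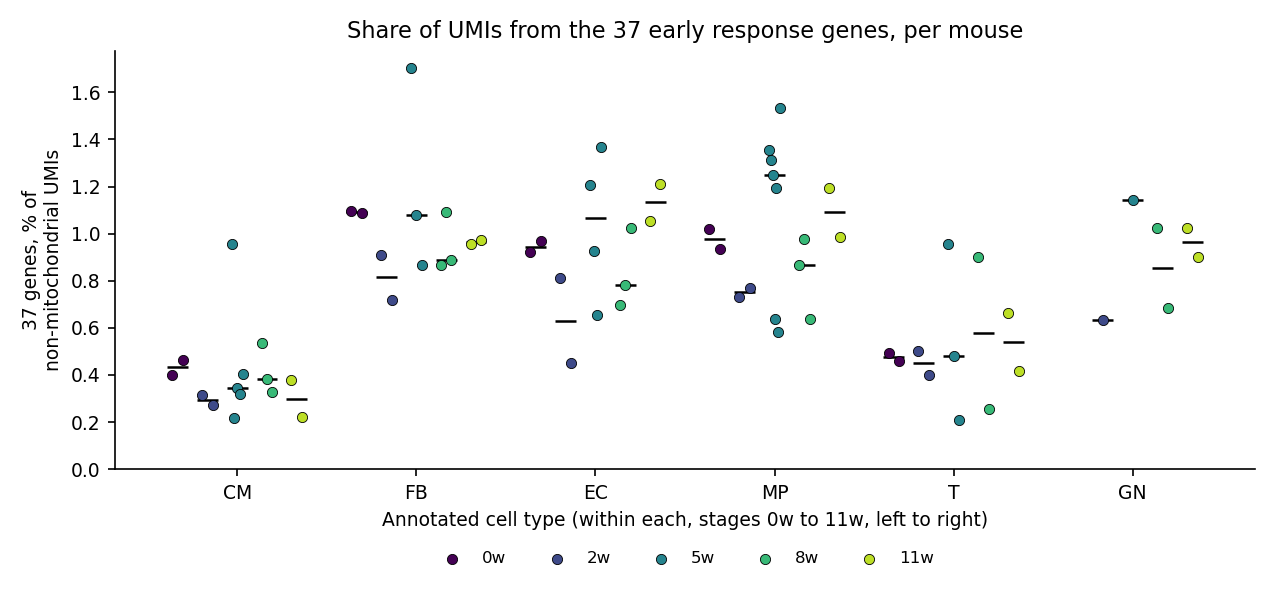
Share of the UMIs outside mitochondrially encoded genes that came from the 37 genes (y axis, percent), 1 point per mouse with 10 or more cells of the type, grouped by annotated cell type and, within each, by stage in the order 0w, 2w, 5w, 8w and 11w; bars are medians. CM and T lie below the other types, and the highest CM point is 5w replicate 1 at 0.956%.

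Within a type the share differed from cell to cell. Cells were not matched for depth here. In CM the share of a single cell had a median of 0.186%, with 10% of cells at or below 0.0344% and 10% at or above 0.758%. In MP the median was 0.890%, with 10% of cells at or below 0.272% and 10% at or above 1.91%. Of all Fos UMIs in CM, 73.5% were in the 10% of CM with the most Fos UMIs.

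Cell types were compared with edgeR's quasi-likelihood test on UMI counts summed per mouse and type (66 sums of 16 mice, mouse as a block, TMM scaling), with Benjamini-Hochberg adjustment over the 19845 genes tested and a threshold of 0.05. Of the 37 genes, 32 passed in at least 1 of the 5 type comparisons. The 5 that did not were Fosl2, Jund, Egr3, Nr4a2 and Socs3. Differences are log2 values with their standard error (SE). They are set by the counts scaled in that fit, and the CPM printed beside them are not.

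In CM, 0 of the 37 genes were higher and 10 were lower than the mean of FB, EC, MP and T, where 13.5% of all genes tested were higher and 4.27% lower. The median log2 difference was -0.47 for the 37 genes and 0.22 for all genes. The 10 were Junb, Fosb, Nfkbia, Nfkbiz, Klf6, Klf10, Btg1, Gadd45b, Ppp1r15a and Ier5. Junb, an AP-1 subunit, had a median of 165 CPM in CM (94.9 to 854), against medians of 725 CPM in FB, 584 CPM in EC, 674 CPM in MP and 374 CPM in T (log2 difference -0.98, SE 0.18, adjusted p = 2e-05). Fosb, another AP-1 subunit, had 19.8 CPM in CM, against 141, 93.8, 112 and 89.3 CPM in FB, EC, MP and T (-1.43, SE 0.33, adjusted p = 0.00106). Nfkbia, the inhibitor of NF-kB, had 204 CPM in CM, against 586, 733, 923 and 400 CPM (-1.05, SE 0.22). Its nuclear relative Nfkbiz followed (-1.03, SE 0.27). Klf6 (-1.01, SE 0.25) and Klf10 (-1.22, SE 0.31), Krüppel-like factors, the antiproliferative gene Btg1 (-1.18, SE 0.23) and the stress sensor gene Gadd45b (-1.06, SE 0.28) were the rest of the 8 with the smallest p. Ppp1r15a and Ier5 also passed, but did not when 11w replicate 2 was left out (adjusted p = 0.0847 and 0.0665), and Ier5 did not when 5w replicate 5 was (0.0600).

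Several of the best known immediate early genes did not pass in CM. Fos had a median of 330 CPM in CM (157 to 671), against 1061 CPM in FB, 842 CPM in EC, 665 CPM in MP and 299 CPM in T (-0.49, SE 0.23, adjusted p = 0.138). The CM range overlapped with all 4. Egr1 (-0.37, SE 0.17), Jun (-0.29, SE 0.18), Nr4a1 (-0.54, SE 0.27), Dusp1 (-0.47, SE 0.18, adjusted p = 0.0542), Atf3 (-0.19, SE 0.35) and Klf2 (0.42, SE 0.28) did not pass either. The count in CM depended on the scaling and on the plates. It was 22 when scaled to the total of UMIs outside mitochondrially encoded genes without TMM factors, an alternative chosen after seeing the data, and that scaling moved the median of all genes by -0.31. Fos (-0.85), Jun (-0.67), Egr1 (-0.72), Nr4a1 (-0.89) and Dusp1 (-0.83) passed there. On myocyte-poor plates alone 3 passed, Fosb, Klf10 and Nfkbiz. Of those that did not, Gadd45b had a log2 difference of -0.09 there, Ppp1r15a -0.29 and Nfkbia -0.43, while Junb had -0.67, Btg1 -0.68, Ier5 -0.67 and Klf6 -0.62. Cells of the other types on myocyte-rich plates carried cardiomyocyte markers at high sums, which are given with the plate comparison, and the part of those UMIs in the type differences was not tested.

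FB had the most members of the EGR and NR4A families above other types. Against the mean of EC, MP and T, 12 of the 37 genes were higher and 3 lower, where 11.5% and 4.58% of all genes were. The median was 0.38 for the 37 genes and 0.12 for all genes. Egr1, a zinc finger factor, had a median of 1291 CPM in FB (661 to 2399), against 649 CPM in EC (84.0 to 967), 554 CPM in MP (261 to 1248) and 184 CPM in T (67.5 to 842), a log2 difference of 1.67 (SE 0.17, adjusted p = 6.45e-12). Its relative Egr2 had 50.9 CPM in FB, against 1.82, 13.2 and 4.82 CPM in EC, MP and T (2.64, SE 0.55, adjusted p = 0.000232). Cyr61, a secreted matrix protein induced through SRF and YAP, had 874 CPM in FB, against 528, 137 and 75.2 CPM (2.38, SE 0.25, adjusted p = 2.6e-11). Fos had 1061 CPM in FB (749 to 1504), against 842 CPM in EC, 665 CPM in MP and 299 CPM in T (1.02, SE 0.22, adjusted p = 0.000418).

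Others of the FB genes were Ier2 (1.25, SE 0.23), Gadd45g (1.30, SE 0.26), Klf4 (1.26, SE 0.32) and the nuclear receptor gene Nr4a1 (0.91, SE 0.26), with Nr4a3, Gadd45b, Maff and Myc. Nr4a1 had an adjusted p of 0.0100, and did not pass without 2w replicate 2 (0.75, adjusted p = 0.05004). Maff did not pass when 0w replicate 1, either 2w mouse or 8w replicate 3 was left out (adjusted p = 0.0502 to 0.0651), nor Myc when 2w replicate 1 (0.0587) or 5w replicate 3 (0.0944) was. Lower in FB were Btg1, Dusp6 and Dusp2, a nuclear phosphatase of MAP kinases, with 0.766 CPM in FB, against 13.9 CPM in EC, 7.27 CPM in MP and 13.5 CPM in T (-3.74, SE 0.79, adjusted p = 0.000266). Dusp6 did not pass in 12 of the fits that left out 1 mouse (log2 difference -1.37 to -1.16, adjusted p = 0.0511 to 0.0999), those without 0w replicate 1, either 2w mouse, a 5w mouse other than replicates 3 and 5, any 8w mouse or 11w replicate 2. Dusp1 (0.45, SE 0.18), Klf2 (-0.41, SE 0.30), Atf3 (0.34, SE 0.37) and Jun (0.15, SE 0.18) did not pass in FB.

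In EC, 5 of the 37 genes were higher than the mean of FB, MP and T and 0 were lower, where 6.71% and 2.97% of all genes were. The median was 0.13 for the 37 genes and 0.00 for all genes. Klf2, a factor known to respond to shear stress in endothelium, led. It had a median of 284 CPM in EC (36.5 to 914), against 98.2 CPM in FB, 154 CPM in MP and 20.7 CPM in T (1.98, SE 0.27, adjusted p = 8.07e-08). Cyr61 (1.53, SE 0.27) and the phosphatase gene Dusp1, with 600 CPM in EC (191 to 1508), against 448, 512 and 161 CPM in FB, MP and T (0.81, SE 0.18, adjusted p = 0.00063), also passed. Rhob, a small GTPase of the endosome, passed (1.44, SE 0.42, adjusted p = 0.0158), but not when 2w replicate 1 (adjusted p = 0.0586) or 8w replicate 3 (0.0534) was left out. Klf10 passed (0.94, SE 0.29, adjusted p = 0.028), but had an adjusted p of up to 0.0868 when 5w replicate 3, 5w replicate 7, 8w replicate 3, 11w replicate 1 or 11w replicate 2 was left out. Jun (0.50, SE 0.18, adjusted p = 0.0558), Nr4a1 (-0.50, SE 0.28), Atf3 (-0.46, SE 0.39), Fos (0.15, SE 0.23) and Egr1 (-0.03, SE 0.18) did not pass. The count was 12 with DESeq2 and 8 with each of 4 other settings, and leaving out 1 mouse at a time gave 3 (without 8w replicate 3) to 8 (with any one of 0w replicate 2, 5w replicate 2 and 5w replicate 5 left out).

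In MP, Ppp1r15a, Zfp36, Nfkbiz and Atf3 had the smallest p of the 37 genes. Of these 37, 12 were higher than the mean of FB, EC and T and 2 were lower, where 8.01% and 4.01% of all genes were. The median was 0.33 for the 37 genes and -0.10 for all genes. Atf3, a stress-induced bZIP factor known to restrain inflammatory genes in macrophages, had a median of 350 CPM in MP (152 to 943), against 140 CPM in FB (74.5 to 269), 120 CPM in EC (0 to 646) and 34.1 CPM in T (3.37 to 258), a log2 difference of 2.17 (SE 0.34, adjusted p = 1.14e-06). Ppp1r15a, which directs a phosphatase to eIF2alpha and so restores translation after stress, had 612 CPM in MP (172 to 1324), against 193, 191 and 165 CPM in FB, EC and T (1.95, SE 0.24, adjusted p = 2.25e-09). Zfp36, which promotes decay of cytokine mRNAs, had 542 CPM in MP, against 292, 251 and 148 CPM (1.51, SE 0.21, adjusted p = 6.73e-08).

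Nfkbiz (1.74, SE 0.25), Nfkbia (1.02, SE 0.20), Ier5 (1.80, SE 0.29), Ier3 (1.27, SE 0.25) and Klf6 (1.31, SE 0.22) were the rest of the 8 with the smallest p in MP, and Btg2, Junb and Gadd45b also passed. Junb did not pass without 2w replicate 2 (adjusted p = 0.0530), nor Gadd45b when 5w replicate 2 (0.0626) or 5w replicate 3 (0.0600) was left out. Dusp1 passed (0.51, SE 0.17, adjusted p = 0.0305), but had an adjusted p of 0.0507 to 0.0769 when 0w replicate 2, 5w replicate 2, 5w replicate 3, 8w replicate 3 or 11w replicate 1 was left out. Lower in MP were Cyr61 (-1.08, SE 0.26) and Klf10 (-1.14, SE 0.30). Fos (0.09, SE 0.22), Jun (0.15, SE 0.17), Egr1 (0.18, SE 0.17), Nr4a1 (-0.02, SE 0.27) and Klf2 (0.71, SE 0.28) did not pass.

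T cells had lower levels of most of the genes than the other non-myocytes. Against the mean of FB, EC and MP, 2 of the 37 genes were higher and 21 lower, where 6.22% and 10.1% of all genes were. The median was -1.05 for the 37 genes and -0.22 for all genes. Dusp5, a nuclear phosphatase of ERK, was higher, with a level in T of 11.7 to 163 CPM, against medians of 5.45 CPM in FB, 3.48 CPM in EC and 3.46 CPM in MP (2.90, SE 0.51, adjusted p = 2.29e-05), and so was Btg1 (0.76, SE 0.23). The lower genes were led by Egr1, with 184 CPM in T, against 1291, 649 and 554 CPM in FB, EC and MP (-1.82, SE 0.21, adjusted p = 2.28e-09). Cyr61 (-2.83, SE 0.34), Dusp1 (-1.77, SE 0.21), Klf2 (-2.29, SE 0.36), Ier3 (-2.03, SE 0.33), Nfkbiz (-2.05, SE 0.33), Ier2 (-1.45, SE 0.28), Atf3 (-2.05, SE 0.45), Fos (-1.26, SE 0.27) and Jun (-0.80, SE 0.20) followed. Nr4a1 (-0.39, SE 0.30) did not pass. The calls of 3 genes were lost when single mice were left out: Btg1 (without 11w replicate 1, adjusted p = 0.0936), Btg2 (both 0w mice, both 11w mice, and 5w replicates 1 and 3, each in turn, up to 0.0997) and Ppp1r15a (the same 6 mice and 2w replicate 1, up to 0.0910).

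**Figure D2:**
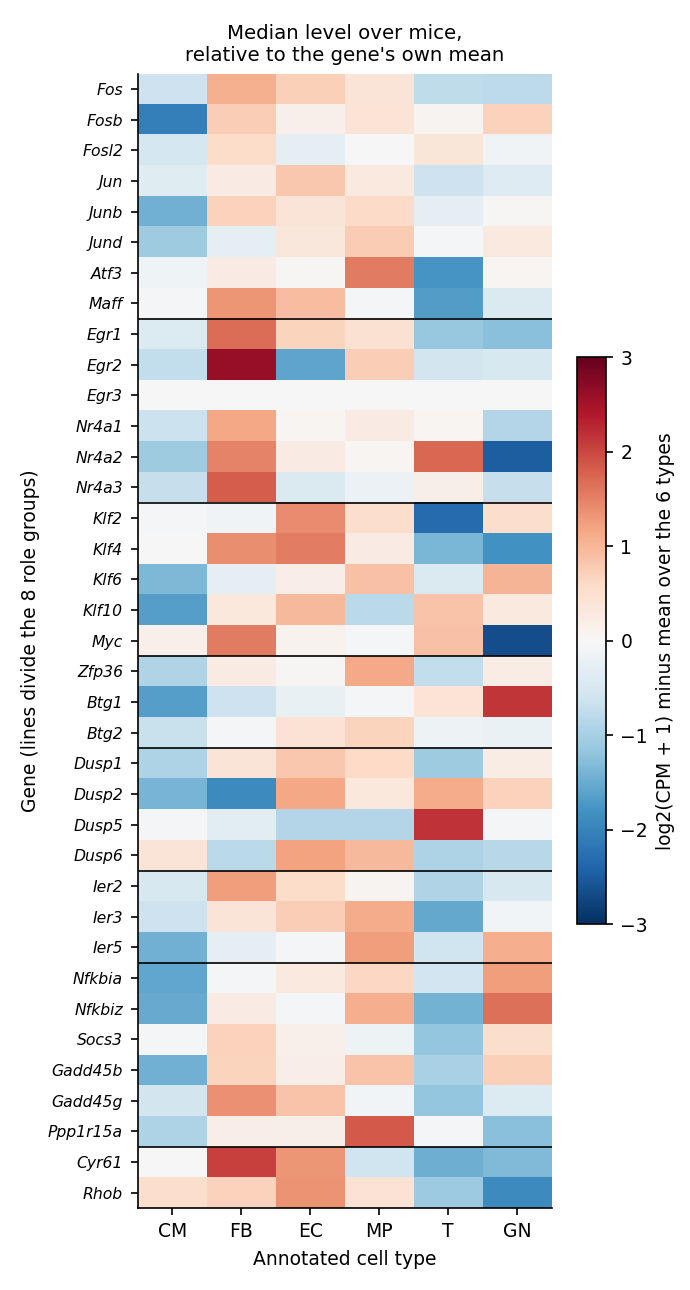
Median level over mice of each of the 37 genes in the 6 annotated types, as log2(CPM + 1) minus the gene's own mean over the types, so that colours compare types within a gene and not genes with each other. Red is above and blue below the gene's mean; lines divide the 8 role groups. Egr2 and Cyr61 are deepest red in FB, Klf2 and Klf4 in EC, Ppp1r15a and Atf3 in MP, Dusp5 in T, and Btg1 in GN.

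By role, the 8 AP-1 and bZIP genes had 2 lower in CM, 2 higher in FB, 2 higher in MP and 5 lower in T. Of the 6 EGR and NR4A genes, 4 were higher in FB and 1 lower in T. Of the 6 feedback genes (Nfkbia, Nfkbiz, Socs3, Gadd45b, Gadd45g and Ppp1r15a), 4 were lower in CM, 2 higher in FB, 4 higher in MP and 5 lower in T. These counts are to be read beside the shares of all genes given with each type above. GN entered no test. Its levels are from 6 mice, and Btg1 (median 1133 CPM, 388 to 1924), Nfkbia (1443 CPM, 615 to 1869), Nfkbiz (367 CPM) and Klf6 (505 CPM) had their highest median there.

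Genes upstream of the response, and others that run beside it, were compared in the same fit. Of 22 regulators (MAP kinases, SRF partners, CREB, NF-kB and MEF2 genes), 3 were higher in CM and 0 lower: Map2k2 (1.33, SE 0.30), Mapk8, which encodes JNK1 (1.68, SE 0.47), and Yap1 (1.49, SE 0.49). In FB 0 were higher and 1 lower (Crem, -1.47, SE 0.53). In EC 4 were higher and 1 lower, with Mapk3, which encodes ERK1 (1.88, SE 0.33), Elk3 (1.67, SE 0.36) and Elk4 (1.71, SE 0.38) higher and Mkl1 (-2.82, SE 0.84) lower. In MP 3 were higher and 1 lower, with Mef2a (1.12, SE 0.21), Mapk14, which encodes p38 alpha (1.61, SE 0.42), and Mef2c (0.95, SE 0.31) higher and Elk4 (-1.18, SE 0.38) lower. In T 1 was higher (Crem, 2.41, SE 0.50) and 2 lower (Mapk3, -2.16, SE 0.43, and Mef2a, -1.29, SE 0.27). The list's median was 0.17 in CM, -0.11 in FB, 0.11 in EC, 0.04 in MP and -0.26 in T, to be read beside the medians of all genes given above. The counts are to be read beside the shares of all genes that passed. In CM 13.5% were higher and 4.27% lower, in FB 11.5% and 4.58%, and in EC 6.71% and 2.97%. In MP the shares were 8.01% and 4.01%, and in T 6.22% and 10.1%.

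Of 36 other early and stress response genes, 2 were higher and 5 lower in CM, 7 and 2 in FB, 5 and 3 in EC, 7 and 3 in MP, and 2 and 10 in T. The medians were -0.07, 0.20, -0.20, 0.11 and -0.66 in the same order. These counts, and those of the next lists, are also to be read beside the shares of all genes just given. Id2, an inhibitor of helix-loop-helix factors, was lower in CM (-1.92, SE 0.33), Cebpd (2.40, SE 0.31) and the matrix protein gene Ctgf (2.57, SE 0.35) were higher in FB, Hes1 (2.09, SE 0.26) and Id1 (2.56, SE 0.34) in EC, and Cebpb (2.29, SE 0.27) in MP. Of 16 NF-kB and cytokine targets, 0 were higher and 4 lower in CM, 6 and 1 in FB, 1 and 5 in EC, 7 and 1 in MP, and 0 and 9 in T, with medians of -0.77, 0.77, -0.66, 1.31 and -1.93. In MP the chemokine gene Cxcl2 (4.82, SE 0.33) and the cytokine genes Tnf (4.79, SE 0.46) and Il1b (4.54, SE 0.48) were higher, and in FB Cxcl1 (3.21, SE 0.31) and Il6 (3.28, SE 0.50). Of 13 heat shock genes, which are known to answer unfolded proteins and also digestion, 1 was higher and 3 lower in CM, 1 and 3 in FB, 1 and 1 in EC, 3 and 0 in MP, and 4 and 2 in T, with medians of -0.14, -0.18, -0.26, 0.42 and 0.24. The co-chaperone gene Bag3 was higher in CM (1.22, SE 0.27), Hspa1a was higher in MP (1.12, SE 0.24) and lower in FB (-1.34, SE 0.29), and Hspb1 was higher in FB (1.07, SE 0.29) and EC (1.38, SE 0.29).

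Across stages, none of the 37 genes passed in any type. The stage comparisons were 2w minus 0w, 5w minus 0w, and late stages (mean of 8w, 11w) minus early ones (mean of 0w, 2w), in each of CM, FB, EC, MP and T. With edgeR's quasi-likelihood test 0 of the 36 genes tested passed in each of the 15, and 0 to 4 were below an unadjusted p of 0.05. DESeq2 called 1 in FB at 2w (Dusp6, -3.32, adjusted p = 0.0280) and 1 in FB at 5w (Dusp5, 4.00, adjusted p = 0.0334), and 0 in the other 13. Among all genes, 0% passed in 12 of the comparisons, 0.00629% in CM between late and early stages, 0.00688% in EC at 5w and 0.0661% in T at 5w. No gene of the 4 companion lists passed. These comparisons thus gave almost no calls for any gene, and a missed threshold does not show that the stages were alike.

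The share of the 37 genes by stage is given as medians over mice in the order 0w, 2w, 5w, 8w and 11w. In CM it was 0.432%, 0.294%, 0.343%, 0.385% and 0.300%. In FB it was 1.09%, 0.815%, 1.08%, 0.890% and 0.964%, and in EC 0.945%, 0.631%, 1.07%, 0.783% and 1.13%. In MP it was 0.978%, 0.751%, 1.25%, 0.867% and 1.09%, and in T 0.477%, 0.451%, 0.481%, 0.578% and 0.540%. The medians of CM, FB, EC and MP were lower at 2w than at 0w and higher again at 5w. The mice of 1 stage could differ by more than these medians, as MP at 5w ranged over 7 mice between 0.584% and 1.53%.

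The lower share at 2w was seen on both kinds of plate in CM. On myocyte-rich plates the 2w mice had 0.292% and 0.241% in CM, against 0.391% and 0.460% in the 0w mice. On myocyte-poor plates the 2w mice had 0.439% and 0.438%, against 0.691% in the single 0w mouse with 10 or more CM there. In MP on myocyte-poor plates the 2w mice had 0.783% and 0.860%, against 1.12% and 1.09% at 0w, but on myocyte-rich plates they had 0.608% and 0.676%, against 0.673% and 0.692% at 0w, where the groups overlapped. FB on myocyte-poor plates had 0.924% and 0.683% at 2w, against 1.10% and 1.09% at 0w. All 2w cells were on plates C and D and all 0w cells on plates A and B, so the stage and the plate cannot be told apart.

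Fos shows the size of these differences in CM. By mouse the 0w mice had 498 and 671 CPM and the 2w mice 259 and 255 CPM. The 5w mice had a lowest value of 157, a median of 324 and a highest value of 657 CPM (n = 5), the 8w mice had 430, 403 and 292 CPM, and the 11w mice had 349 and 222 CPM. Both 2w mice were below both 0w mice, and the 5w mice spanned nearly the whole range. The log2 difference at 2w was -1.33 (SE 0.50, adjusted p = 1), and that of all 36 genes had a median of -0.57, against 0.05 for all genes, with 5 above 0 and 31 below. Klf4 (-1.31, SE 0.56), Btg1 (-0.98, SE 0.47) and Jun (-0.94, SE 0.49) had the next smallest p, and Atf3 (-1.03), Egr1 (-0.86), Dusp1 (-0.74), Klf2 (-0.60) and Nr4a1 (-0.44) were also below 0. On myocyte-rich plates alone the median was -0.79, with 0 called and 16 below an unadjusted p of 0.05.

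At 5w the CM median was -0.04, against 0.03 for all genes, and the smallest p belonged to Klf10 (-1.27, SE 0.51), Jund (1.54, SE 0.69), Maff (-1.57, SE 0.73) and Fos (-0.81, SE 0.40). Nr4a1 (-1.01), Atf3 (-0.47), Klf2 (-0.19), Egr1 (-0.00), Dusp1 (0.03) and Jun (0.20) did not pass. Fosl2 alone passed on myocyte-rich plates (-1.51, SE 0.32, adjusted p = 0.032), and Fosb (3.67, SE 0.83) and Ppp1r15a (2.80, SE 0.65) passed when mice were blocked by their replicate number. The numbers are not known to pair the mice, and these 3 genes were chosen after their values were seen. At late stages the median was 0.40, against -0.06 for all genes, and 0.02, against -0.43, without TMM factors. That scaling moved the median of all genes by -0.37, and with it 11 genes changed sign, among them Atf3, Egr1, Fos and Dusp1. Btg1 (0.88, SE 0.32), Gadd45g (0.84, SE 0.38), Jun (0.67, SE 0.34) and Klf4 (0.72, SE 0.38) had the smallest p. Nr4a1 (0.93), Klf2 (0.56), Atf3 (0.35), Egr1 (0.24), Fos (0.16) and Dusp1 (0.16) did not pass either.

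In FB the median difference was -0.19 at 2w, -0.03 at 5w and -0.06 at late stages, against -0.01, 0.06 and 0.00 for all genes. Junb had the smallest p of the 15 comparisons. The 0w mice had 920 and 857 CPM, the 2w mice 287 and 202 CPM, the 5w mice 1417, 766 and 1147 CPM, the 8w mice 596, 752 and 423 CPM, and the 11w mice 698 and 580 CPM. The 2w mice were below all the other mice with 10 or more FB (-1.64, SE 0.45, adjusted p = 0.41). The same was so in EC, where Junb was 259 and 134 CPM at 2w and at least 338 CPM in each of the other 11 mice (-1.31, SE 0.71, adjusted p = 0.663). Btg1 (-1.55, SE 0.58), Dusp6 (-3.26, SE 1.29) and Jund (-1.64, SE 0.68) were next in FB at 2w, and Dusp5 (3.79, SE 1.49) led at 5w. Fos had log2 differences in FB of 0.16 at 2w, 0.16 at 5w and -0.31 at late stages. Egr1 had -0.60, 0.33 and 0.27, Dusp1 -0.98, -0.78 and -0.48, and Atf3 0.53, 0.54 and -0.01.

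In EC the median was -0.19 at 2w, 0.05 at 5w and 0.55 at late stages, against 0.01, -0.29 and -0.12 for all genes, and the smallest p at late stages belonged to Myc (2.58, SE 1.16), Fosl2 (2.07, SE 0.98), Nfkbiz (1.44, SE 0.72) and Cyr61 (0.92, SE 0.50). In MP it was -0.33, 0.19 and 0.26, against 0.01, -0.04 and -0.15 for all genes, with 8 of 36 genes above 0 at 2w and 27 of 36 at late stages. Nr4a2, a nuclear receptor gene, had the smallest p at 2w in MP (-3.96, SE 1.87) and Maff at late stages (2.15, SE 1.05). In T the median was 0.02, 0.02 and 0.04, against 0.01, 0.03 and -0.75. Fos in T had 942 and 610 CPM in 0w mice, 299 and 238 CPM in 2w mice, 1183, 84.2 and 84.7 CPM in 5w mice, 454 and 28.9 CPM in 8w mice, and 673 and 217 CPM in 11w mice. The value of 1183 CPM is 5w replicate 1 of plate E, and without plate E Fos in T passed at 5w (-3.72, adjusted p = 0.0286, against -1.05 and 0.849 with it). That alternative was chosen after seeing the data.

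On plate E the 2 stages met on the same plate, with 1 mouse each and thus no test. The share in 5w replicate 1, against 8w replicate 1, was 0.956% against 0.537% in CM, 1.70% against 0.867% in FB, 1.21% against 0.699% in EC, 1.35% against 0.867% in MP and 0.956% against 0.8997% in T. The 5w mouse was higher in all 5 types. Its CM differed in Ppp1r15a (810 CPM, against 164 CPM), Junb (854 CPM, against 286 CPM) and Nfkbia (608 CPM, against 281 CPM), genes that were high in MP, and the macrophage markers in the same CM sums were 1448 CPM, against 354 CPM. The part of macrophage RNA in these CM values was not tested.

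**Figure D3:**
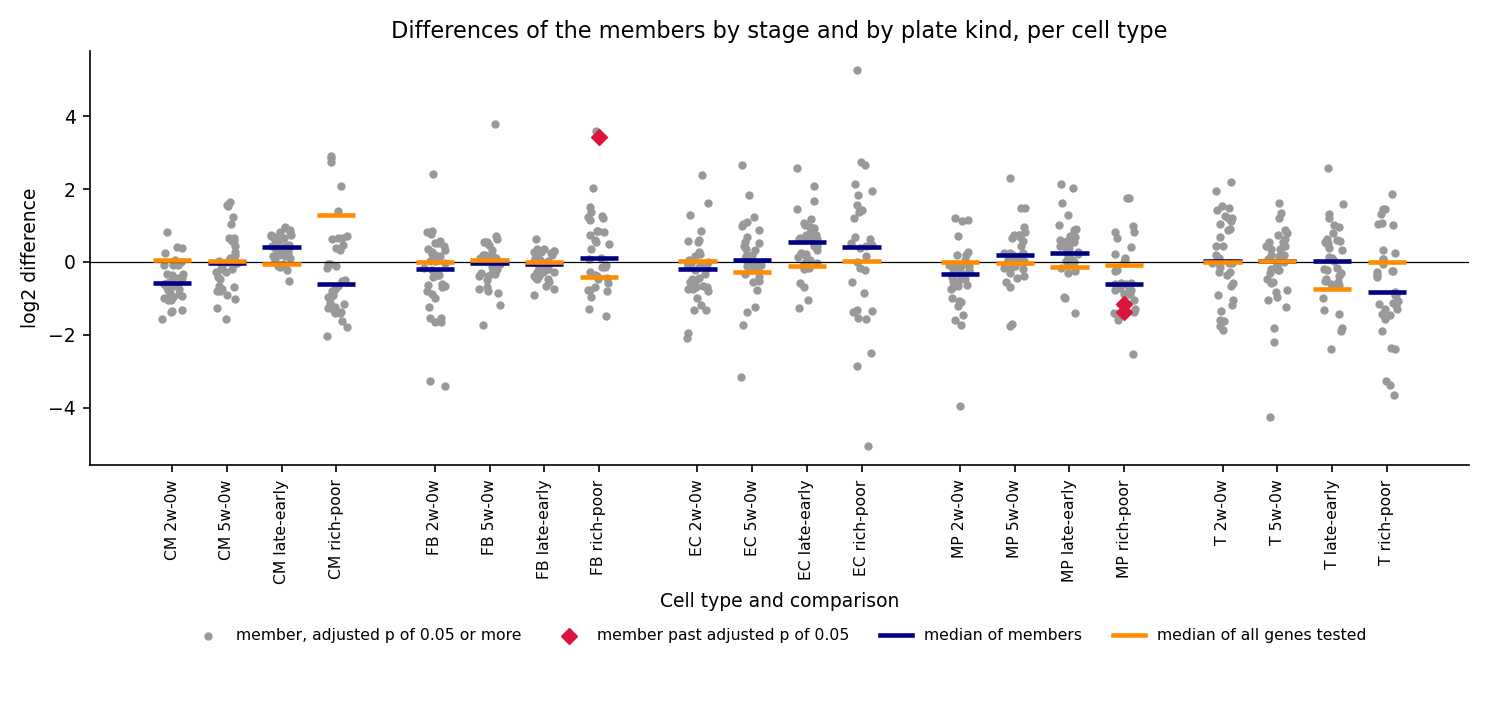
Log2 differences of the 37 genes (y axis) in each of 3 stage comparisons and in the plate comparison, per cell type; grey points are genes that did not pass, red diamonds genes with an adjusted p under 0.05, blue bars the median of the genes and orange bars the median of all genes tested. The red diamonds are Atf3 in FB (3.44) and Nfkbia (-1.15) and Gadd45b (-1.38) in MP, all between kinds of plate.

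Between kinds of plate, the same mouse gave lower shares of the 37 genes on myocyte-rich than on myocyte-poor plates in CM, MP and T. In CM the shares were 0.391% on the myocyte-rich and 0.691% on the myocyte-poor plate for 0w replicate 1, 0.292% and 0.439% for 2w replicate 1, 0.241% and 0.438% for 2w replicate 2, and 0.314% and 0.471% for 8w replicate 3. In MP they were 0.673% and 1.12% for 0w replicate 1, 0.692% and 1.09% for 0w replicate 2, 0.608% and 0.783% for 2w replicate 1, 0.676% and 0.860% for 2w replicate 2, and 0.737% and 1.08% for 8w replicate 2. All 4 mice in CM, all 5 in MP and both in T were lower on the myocyte-rich plate, with a median log2 ratio of -0.71 in CM, -0.55 in MP and -0.65 in T. In FB 1 of 3 mice and in EC 1 of 2 were higher there. All mice compared here were on plates A and B at 0w, C and D at 2w, or I and J at 8w. Mice of 1 stage thus shared both plates, and the p-values of the plate comparison measure the spread between mice, not between plates.

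Few single genes passed. In MP, 0 of 36 genes were higher and 2 lower on myocyte-rich plates (5 mice, mouse as a block), where 7.92% of all genes passed in either direction. The median was -0.61, against -0.07 for all genes, and 12 genes were below an unadjusted p of 0.05. Nfkbia was 453, 559, 555, 431 and 374 CPM on the myocyte-rich plates of 0w replicates 1 and 2, 2w replicates 1 and 2 and 8w replicate 2, against 1185, 1149, 873, 1301 and 970 CPM on the myocyte-poor plates. The groups did not overlap (-1.15, SE 0.29, adjusted p = 0.0199). Gadd45b was 95.1, 93.8, 56.3, 83.5 and 159 CPM on myocyte-rich plates, against 211, 243, 163, 316 and 363 CPM in the same order on myocyte-poor plates (-1.38, SE 0.38, adjusted p = 0.0375). Both calls were lost, and 0 genes passed, when either 0w mouse or 2w replicate 1 was left out. Without 2w replicate 2 both were lost and 1 other, Fosb, passed. Their adjusted p then lay between 0.0539 and 0.0842 for Nfkbia and between 0.0897 and 0.141 for Gadd45b.

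Junb (-1.04, SE 0.31, adjusted p = 0.0556), Fosb (-1.38, SE 0.52), Jun (-0.60, SE 0.32), Dusp1 (-0.61, SE 0.34) and Klf2 (-0.70, SE 0.45) in MP were below 0 but did not pass. Fos in MP was 613, 662, 669, 865 and 798 CPM on myocyte-rich plates, against 1088, 762, 711, 406 and 458 CPM on myocyte-poor plates, so that 3 mice were lower and 2 higher (0.21, SE 0.32). Egr1 (-0.21, SE 0.28) and Nr4a1 (-0.26, SE 0.53) did not pass. With each cell thinned to 2000 UMIs 5 genes passed, Nfkbia, Gadd45b and Junb lower and Cyr61 (1.28, SE 0.44) and Maff (2.10, SE 0.75) higher. Of the companion lists, the cell cycle inhibitor gene Cdkn1a (-1.87, SE 0.29) and the heat shock genes Hspa1a (-1.32, SE 0.34) and Dnajb1 (-1.65, SE 0.45) were lower in MP on myocyte-rich plates, and no other companion gene passed in any type.

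Atf3 went the other way. It was higher on the myocyte-rich plate in all 16 pairs of a mouse and a type, from 6 mice, and was the 1 member of the 36 with a mean of at least 10 CPM to be so. Of the 8702 genes with such a mean 2.67% did the same, so 1 of 36 members is near the share of all genes. The 16 pairs share mice and plates. In FB it was 274, 657 and 486 CPM on the myocyte-rich plates of 0w replicate 2, 8w replicate 2 and 8w replicate 3, against 142, 60.0 and 5.96 CPM on the myocyte-poor plates (3.44, SE 0.78, adjusted p = 0.00551). It was the 1 of 35 genes to pass in FB, where 1.88% of all genes did, and it did not pass when 8w replicate 2 (3.48, adjusted p = 0.305) was left out, nor when 8w replicate 3 was (2.33, adjusted p = 0.15). In MP it was 486, 339, 322, 520 and 695 CPM, against 283, 236, 307, 182 and 356 CPM, in the order of mice used for Nfkbia (0.83, SE 0.33, adjusted p = 0.159). In CM it was 121, 81.4, 79.4 and 116 CPM, against 9.78, 72.6, 15.2 and 59.0 CPM (1.39, SE 1.35), in EC 216 and 384 CPM, against 21.2 and 1.82 CPM (5.29, SE 2.49), and in T 128 and 85.3 CPM, against 54.9 and 16.1 CPM (1.87, SE 1.32). The lowest of these values rest on few Atf3 UMIs. The myocyte-poor EC sums held 15 and 14 cells, with 283094 and 549603 UMIs outside mitochondrially encoded genes. That of CM in 0w replicate 1, at 9.78 CPM, held 14 cells with 511529 such UMIs.

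No gene passed with edgeR in CM (36 tested), EC (30) or T (35), where 0.0941%, 1.06% and 0.388% of all genes did, and 0, 1 and 1 were below an unadjusted p of 0.05. DESeq2 called 0 in CM, 1 in EC (Atf3, 5.41, adjusted p = 0.0256) and 1 in T (Gadd45g, -3.37, adjusted p = 0.0319). The CM fit rests on 4 mice, and its median over all genes was 1.29, against -0.60 for the 36 genes. Nfkbia (-1.78, SE 0.93), Dusp5 (2.74, SE 1.52), Socs3 (2.92, SE 1.62) and Gadd45b (-2.03, SE 1.16) had the smallest p there. Counted over all 16 pairs, Klf6 and Gadd45b were lower on the myocyte-rich plate in 15, Nfkbia in 14, and Egr1 and Ppp1r15a in 13, while Dusp5 was higher in 13 and Zfp36 and Maff in 12. The median gene of the 36 was higher on the myocyte-rich plate in 6.5 pairs, and that of all 8702 genes in 8. Of all 8702 genes, 232 were higher and 51 lower there in every pair. How many reached the counts of the genes named here was not tallied. These genes were picked by their counts, and the pairs share mice and plates, so the counts are a description.

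Markers of several types moved with the kind of plate in all 5 types tested. In CM the 7 cardiomyocyte markers summed to 27752 to 76665 CPM on myocyte-rich plates (10 mice), against 870 to 20812 CPM on myocyte-poor plates (8 mice). The 7 fibroblast markers in CM had medians of 1479 CPM on myocyte-rich and 6313 CPM on myocyte-poor plates, and the 6 macrophage markers 99.2 and 391 CPM. In the other types, all 7 cardiomyocyte markers were higher on myocyte-rich plates in FB and in MP, 6 of 7 in T and 4 of 7 in EC, with none at 0 in any sum. In MP they summed to 18211 to 60273 CPM on myocyte-rich plates (10 mice), against 429 to 6731 CPM on myocyte-poor plates (11 mice), and in FB to 11401 to 27383 CPM (3 mice), against 342 to 4457 CPM (12 mice). Of the 6 macrophage markers 4 were lower in MP on myocyte-rich plates, with sums of 2891 to 11572 CPM, against 5450 to 14260 CPM. Atf3 in CM on myocyte-rich plates, at 79.4 to 121 CPM, was below Atf3 in MP on myocyte-poor plates, at 182 to 356 CPM in the mice compared, but above Atf3 on myocyte-poor plates in EC (1.82 and 21.2 CPM), in T (16.1 and 54.9 CPM) and in 2 of the 3 FB mice (5.96 and 60.0 CPM, against 142 CPM in the third). The EC values and the lowest FB value on myocyte-poor plates rest on few UMIs. On myocyte-rich plates, all the values of Atf3 given above for FB, EC and MP were higher than those in CM. Those in T overlapped with the CM range. The part of RNA from other cell types in these differences, and in the share of the 37 genes, was not tested, and the kind of plate cannot be told apart from sorting, digestion and sequencing of that plate.

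**Figure D4:**
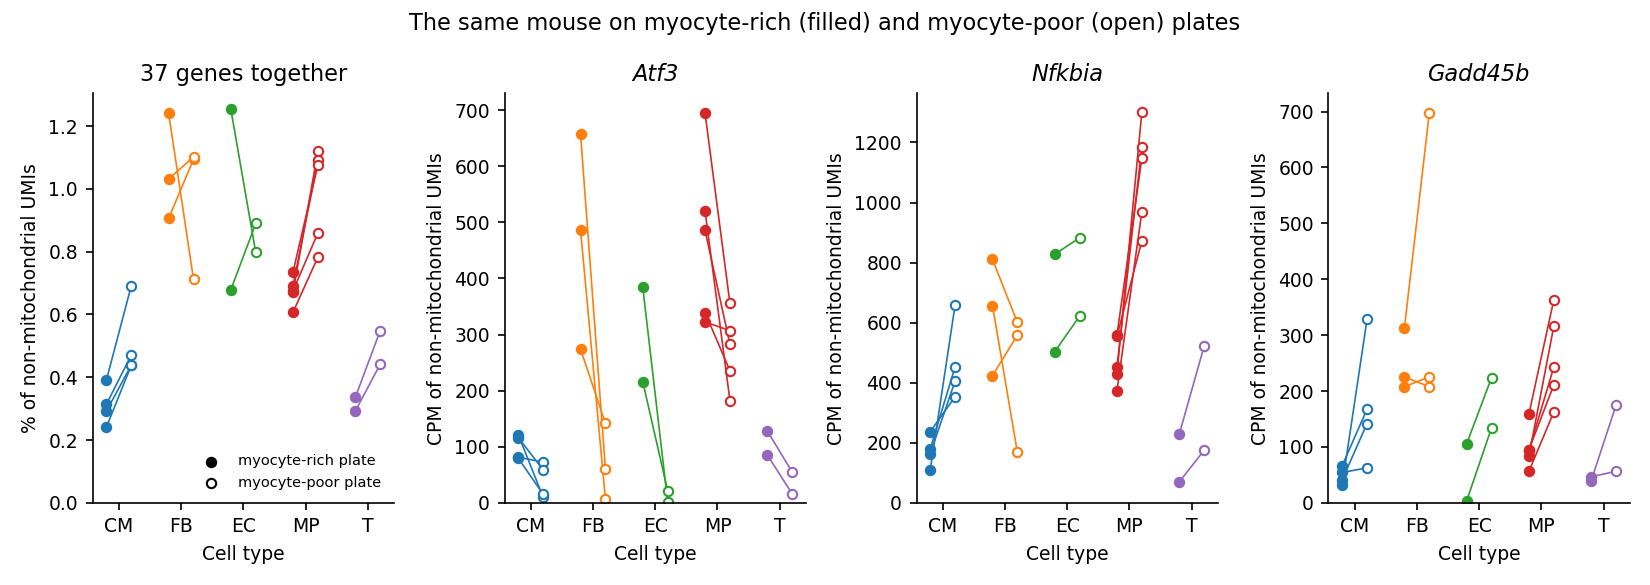
Each line joins 1 mouse on its myocyte-rich plate (filled, left) and its myocyte-poor plate (open, right), per cell type, for the share of the 37 genes (percent of UMIs outside mitochondrially encoded genes) and for Atf3, Nfkbia and Gadd45b (CPM). The share is lower on the myocyte-rich plate in all 4 CM, 5 MP and 2 T mice. Atf3 is higher there in all 16 pairs, as were 2.67% of the 8702 genes with a mean of at least 10 CPM.

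Set side by side, the median difference within a mouse between kinds of plate was above that between stages on plates of 1 kind in CM, EC, MP and T and close to it in FB, but not above that of every other kind of pair. The measure is the absolute log2 ratio of the shares of 2 sums with 10 or more cells, given as a median with no test, since the pairs share mice. In MP it was 0.55 between kinds of plate in 1 mouse (5 pairs), 0.28 between stages on plates of 1 kind (101 pairs) and 0.13 between mice of 1 stage on 1 plate (10 pairs). In CM the same 3 values were 0.71 (4 pairs), 0.43 (60) and 0.28 (7), and in EC 0.52 (2), 0.37 (69) and 0.19 (6). In FB they were 0.27 (3), 0.25 (78) and 0.27 (7), so that mice on 1 plate differed as much as the rest, and in T 0.65 (2), 0.51 (47) and 0.40 (4). Mice of 1 stage on different plates of 1 kind differed by 0.24 in CM, 0.35 in FB, 0.27 in EC, 0.36 in MP and 0.99 in T (3 pairs). The 2 stages on plate E, 1 pair per type, differed by 0.83 in CM, 0.97 in FB, 0.79 in EC, 0.64 in MP and 0.09 in T. A mouse on 2 plates of 1 kind differed by 0.55 in MP, as much as between kinds of plate, by 0.21 in FB and 0.05 in EC (2 mice each), and by 0.60 in T (1 mouse). These were the 11w mice, with cells on 2 myocyte-poor plates, K and L, and their MP had 0.956% and 0.923% on plate K and 1.32% and 1.44% on plate L. Plates K and L were unlike in make-up. CM were 43.1% of annotated cells on plate K and 0.827% on plate L, and mitochondrially encoded genes took 80.3% and 22.9% of their UMIs. The values for 2 plates of 1 kind thus do not show how far plates of like make-up differ.

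The cell table also marks each cell as PI or API, which the labels do not explain, and this comparison was added after seeing the data. No gene of the 36 tested passed in any type, where 0% of all genes did with edgeR, and DESeq2 called 1 in EC (Socs3, 2.01, adjusted p = 0.0192) and 0 in the other types. The share was higher in PI than in API cells of the same mouse in 10 of 14 mice in CM, 9 of 12 in FB, 7 of 10 in EC, 7 of 13 in MP and 5 of 6 in T. In T the medians over mice were 0.667% in PI and 0.383% in API cells, and 6 genes were below an unadjusted p of 0.05. Of these, Jun (1.93, SE 0.67), Zfp36 (2.32, SE 0.95), Rhob (4.20, SE 1.80), Egr1 (1.58, SE 0.69) and Fos (1.35, SE 0.64) were above 0 and Nr4a3 was below (-3.31, SE 1.47). Markers of other types moved with this split of T: over 9 mice in PI and 8 in API, the fibroblast markers had medians of 2807 CPM in PI and 750 CPM in API, the endothelial ones 758 and 353 CPM, and the mural ones 171 and 81.3 CPM. Their part in the T values was not tested. The marks were also spread unevenly over plates, and plate was not a block. In 0w replicate 2, plate A held 80 API and 13 PI T cells and plate B held 6 and 81. Its share was 0.526% in PI and 0.346% in API cells, but 0.349% and 0.332% on plate A and 0.560% and 0.434% on plate B. In 2w replicate 1, plate D alone had 0.885% in PI and 0.383% in API cells. Mark and plate are thus partly mixed in T. In CM 32 of the 36 genes were above 0, with a median of 0.28, against 0.03 for all genes. The smallest p belonged to Dusp6 (1.16, SE 0.44), Fosl2 (0.98, SE 0.43), Ier2 (0.61, SE 0.28) and Socs3 (0.80, SE 0.38), and Atf3 (0.55), Klf2 (0.59), Jun (0.36), Dusp1 (0.28), Egr1 (0.18), Nr4a1 (0.14) and Fos (0.11) were also above 0. The medians of the 36 genes were 0.30 in FB, 0.15 in EC and -0.05 in MP, with 4, 3 and 0 below an unadjusted p of 0.05, against 4 in CM.

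The authors' 47 subclusters were made from the expression of these same cells, so their values are a description. In CM the share ran between 0.131% in CM9 and 0.646% in CM7, and CM4 had 0.617%. CM4 and CM7 each came from several plates, with no plate giving over 35.7% of their cells, and over mice with 10 or more cells CM4 ranged between 0.404% and 1.18% (12 mice) and CM9 between 0.0643% and 0.350% (8 mice). In EC the lowest was EC6 (0.624%) and the highest EC9 (1.29%, 6 mice between 1.04% and 1.503%). In MP the lowest was MP1 (0.653%, 4 mice between 0.609% and 0.693%), with 56.5% of its cells on the myocyte-rich plate C, and the highest MP8 (1.43%), with 50.4% of its cells on plate E.

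Subclusters at the ends of a type were often those of 1 plate. FB7 had the lowest share of FB (0.555%) and all of its cells were on plate K, and FB10 had the highest (1.64%) with 97.3% on plate L. Only 2 mice had 10 or more cells of FB10, at 0.881% and 0.980%. In T the lowest was T2 (0.285%), with 67.9% of its cells on the myocyte-rich plate A, and the highest T1 (0.728%), with 66.3% on the myocyte-poor plate B and 86.2% marked PI. GN2, with 76.1% of its cells on plate F, had 1.27%, and GN0 had 0.725%. Of the 42 subclusters with 50 or more cells, 20 had over 50% of their cells on 1 plate, so subcluster, stage and plate cannot be told apart for these.

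**Figure D5:**
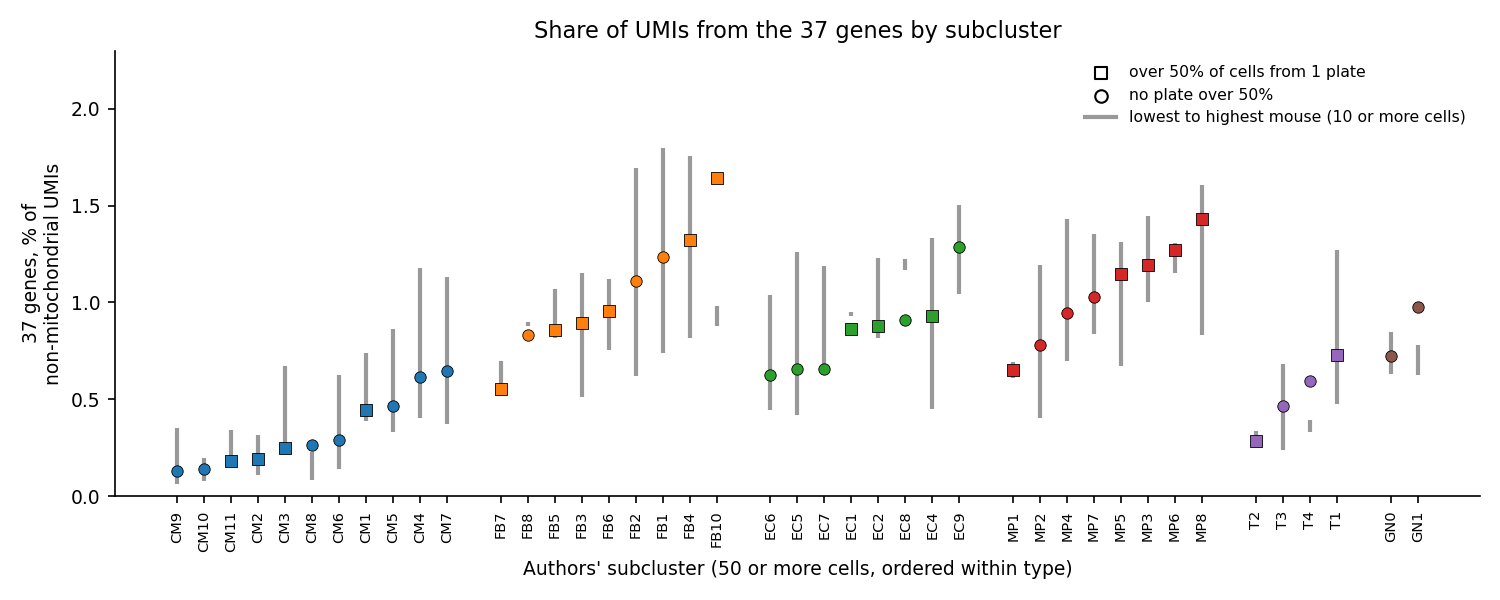
Share of the 37 genes (y axis, percent of UMIs outside mitochondrially encoded genes) in the 42 subclusters with 50 or more cells, ordered within each type; markers give all cells of the subcluster and grey lines the lowest to highest mouse with 10 or more of its cells. Squares are subclusters with over 50% of their cells on 1 plate. FB10 at 1.64% lies above the 2 mice that gave it 10 or more cells.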

How the data were processed

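Single-cell mRNA of 16 mice was measured in 11492 cells. The authors deposited whole-number UMI counts per gene and cell, with a cell table giving mouse, plate, PI or API mark, cell type and subcluster. STAR 2.5.2b, featureCounts, Subread 1.4.6-p1 and the builds mm10 and GRCh37 are named in the submitters' processing notes, without their roles. How UMIs were collapsed and whether strand was used is not given in the sources used here, so reads of paralogs, overlapping genes and antisense partners may be shared. Doublets were not called here.

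Counts were summed per mouse and type where a mouse had 10 or more cells, giving between 2 and 16 mice per comparison, and tested with edgeR 4.0.16 (quasi-likelihood, TMM factors, filterByExpr, R 4.3.3) over all genes that passed the filter, with Benjamini-Hochberg adjustment and a threshold of 0.05. DESeq2 1.42.0 was an alternative. CPM values divide by the UMIs outside 34 mitochondrially encoded genes. Mouse was a block in type, plate and mark comparisons and not in stage comparisons. The scripts were tested on simulated data.

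Named in each comparison are members past the threshold, up to 8 by p, otherwise the 4 with the smallest p, and Fos, Jun, Egr1, Atf3, Nr4a1, Klf2 and Dusp1. In some comparisons fewer of these are given, and other members were added after their values were seen. The members and lists were chosen with earlier results of these data known. Nothing names litters, so p-values measure the spread between these mice. In sums over cells, fewer cells and less RNA per cell cannot be told apart. Counts of UMIs limit the precision of low genes, and the depth is given with the report. GN, with few cells, entered no test.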

Additional observations from a re-analysis of the deposited data

Results flagged for a closer look

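In 28 groups of 4 to 10 mice, the share of the 37 genes, Fos and other levels were searched for a single mouse far from the rest by Dixon's criterion at 95%, which chance passes in about 1 of 20 groups, and 2 groups had one. The share of the 37 genes in CM at 5w was 0.956% in 5w replicate 1, against 0.405% in the next mouse and 0.217% in the lowest (n = 5). This mouse was the 1 CM sum of 5w from a myocyte-poor plate, plate E, and its CM had the lowest cardiomyocyte marker sum, 10479 CPM. The part of the plate and of the other cell types' RNA in this value was not tested. Fos in MP at 5w was 1491 CPM in 5w replicate 7, against 768 CPM in the next mouse and 261 CPM in the lowest (n = 7). The value of 5w replicate 7 rests on 12 cells with 191849 UMIs outside mitochondrially encoded genes.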

How the results depend on the processing

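In 30 comparisons the number of the 37 genes that passed was recomputed under 621 alternatives, and 29 of these moved it by over 1.5 times. The count in CM was 10, and 22 with totals outside mitochondrially encoded genes and no TMM factors, 3 on myocyte-poor plates alone and 8 to 11 with 1 mouse left out. In EC it was 5, and 8 without the low-count filter, 8 without mitochondrially encoded genes, 8 with those totals, 8 with no replicate block, 12 with DESeq2 and 3 to 8 with 1 mouse left out (3 without 8w replicate 3). For FB, MP and T the counts of 15, 14 and 23 stayed within 1.5 times, at 12 to 15, 12 to 15 and 21 to 24 with 1 mouse left out. At 5w in CM it was 0, and 2 with the replicate block and 1 on myocyte-rich plates alone. In FB at 2w and at 5w it was 0, and 1 with DESeq2. In T at 5w it was 0, and 1 without plate E. Between kinds of plate it was 1 in FB, and 0 without the low-count filter, 0 with no replicate block and 0 to 1 with 1 mouse left out. In MP it was 2, and 1 without the filter, 5 with cells thinned to 2000 UMIs and 0 to 2 with 1 mouse left out. In EC and T it was 0, and 1 with DESeq2, and leaving out 1 of the 2 mice could not be fitted. Between PI and API in EC it was 0, and 1 with DESeq2. The cause of these changes was not tested.

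Of 6634 values under alternatives of the genes named by the rule, 0 that had passed changed sign, 43 no longer passed, 33 newly passed and 325 changed sign without passing in either fit. Pairing mice by replicate number was checked by the correlation of same-numbered mice, which had a median of 0.06 in CM and 0.01 in FB, and the replicate block changed no stage count other than that of CM at 5w. Stage comparisons on myocyte-rich plates alone gave no value for late stages, and none in FB, EC and T. Shallow sums of few cells limit what can be seen in EC, T and FB on myocyte-rich plates, and in CM on plate B and EC on plate I.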
